A study of Mus musculus with 6 samples.

Results

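The cytosolic ribosomal protein genes were examined in mRNA-sequencing data of mouse telencephalon, the forebrain region that gives rise to the cortex and striatum. They were taken by name, as the genes whose symbol is Rpl or Rps followed by a number, with or without a, l, l1, al or x, together with Rpsa, Rplp0, Rplp1 and Rplp2. This gave 83 genes of the 22651 genes in each table. The 6 samples were telencephalons of newborn mice (postnatal day 0), 3 of genotype TSC1 flox/flox;Emx1 +/+ (WT) and 3 of genotype TSC1 flox/flox;Emx1-cre/+ (TSC1), 1 table per mouse. Both groups carried 2 floxed alleles of Tsc1, and the WT mice were littermates without Cre. In the TSC1 mice Cre was expressed from the Emx1 locus, which is active in the embryonic dorsal cortex, so that cells of other origin in the dissected tissue kept the gene.

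The cytosolic ribosome consists of a small subunit, which reads the mRNA, and a large subunit, which joins the amino acids. Each subunit is built from ribosomal RNA and a set of proteins named Rps for the small and Rpl for the large subunit. The Tsc1 protein is part of a complex that restrains the kinase mTORC1, and mTORC1 is known to promote ribosome production. Most ribosomal protein mRNAs begin with a C followed by a run of pyrimidines, the 5′ terminal oligopyrimidine (TOP) sequence, through which mTORC1 controls their translation. The libraries measure the amount of mRNA and not its translation.

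The annotated starts of several members show this sequence. The windows printed here hold 10 bases before and 20 bases from the RefSeq transcription start in GRCm38.p6, read on the strand of the gene, with capitals for the unbroken run of pyrimidines that begins at the start with a C. They are shown for Rps6 and Rpl14, which carry the start and were called lower, for Rpl28 and Rpl38, which carry it and stood near the opposite ends of the fold changes, and for Rpl10 and Rps19, which were called lower and lack it at the annotated position (for Rps19, the first of 3 annotated starts).
Rps6 (chr4:86857348-86857377, minus strand): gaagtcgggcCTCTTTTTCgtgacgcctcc
Rpl14 (chr9:120571507-120571536, plus strand): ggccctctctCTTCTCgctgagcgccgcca
Rpl28 (chr7:4792955-4792984, plus strand): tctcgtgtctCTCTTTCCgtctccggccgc
Rpl38 (chr11:114668570-114668599, plus strand): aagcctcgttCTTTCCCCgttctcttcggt
Rpl10 (chrX:74270806-74270835, plus strand): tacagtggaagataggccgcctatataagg
Rps19 (chr7:24884582-24884611, plus strand): aatctcgcgagactcgacgcccgacttgtg

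A start with a C and at least 4 further pyrimidines (C or T) was found in 13 of the 63 members that had a RefSeq start, or 20.6%, and in 3.01% of all 27025 genes of that table. On the coding transcripts of GENCODE M21, which cover all 83 members, the same letters opened at least 1 transcript in 22 members (26.5%) and in 5.12% of 21877 protein-coding genes. The match was read at the annotated start only and on the strand of the gene, and a start placed a few bases away would be missed. The 13 members with the RefSeq start had a median log2 fold change (TSC1 against WT) of -0.38, and 2 of them (Rpl14 and Rps6) were called lower. The 46 tested members without it had a median of -0.34, and 5 of them were called. Over all 79 members tested, with or without a RefSeq start, edgeR called 11 lower (13.9%), against 0.659% of all genes tested.

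Total expected counts, the estimated reads per gene summed over the table, ranged from 14119365 to 17772865 per sample. TPM values divide the reads of a gene by its effective length and are scaled to the same total in every sample, so they serve to compare levels between genes. CPM values are reads scaled by library size and TMM factor, without the length. The members made up a small share of the reads and a larger share of the transcripts, since most are short. Their median length was 684 bases, against 2890 bases over the 13969 genes tested. The smallest amount read as expression was 3 counts, between 0.169 and 0.212 CPM. Tsc1 (chr2:28641228-28691167, GRCm38, plus strand), the deleted gene, had 50.2, 32.0 and 28.4 TPM in WT mice 1, 2 and 3 and 27.1, 21.7 and 22.4 TPM in TSC1 mice. Each TSC1 sample was below each WT sample. The log2 fold change was -0.66 (SE 0.18, edgeR adjusted p = 0.09998). WT replicate 1 was far above the other samples for this gene. The floxed allele removes 2 exons, and the values count reads over the whole gene.

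The ribosomal protein genes as a group were lower in TSC1. They held 0.960%, 1.05% and 1.11% of all expected counts for the WT mice, in replicate order, and 0.824%, 0.803% and 0.890% for the TSC1 mice. The WT mean was 1.04% ± 0.0759 (SD, n = 3), the TSC1 mean 0.839% ± 0.0454 (SD, n = 3) and their ratio 0.806, and the groups did not overlap. Of the summed TPM they held 3.41%, 3.60% and 3.73% in WT and 2.98%, 2.93% and 3.12% in TSC1, a ratio of 0.841. The share did not rest on the most abundant members. Without the 10 of highest TPM the WT share was 2.07% ± 0.101 (SD, n = 3) and the TSC1 share 1.73% ± 0.0537 (SD, n = 3). In tissue samples, fewer cells of a type and less RNA per cell cannot be told apart.

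**Figure D1:**
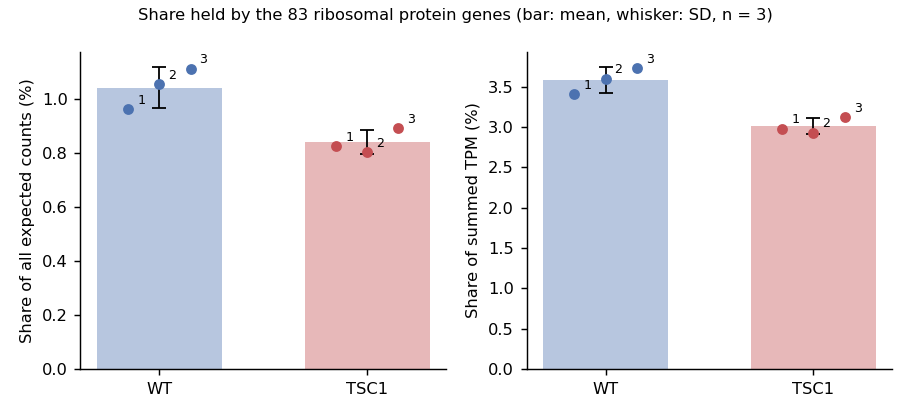
Share of all expected counts (left, percent) and of summed TPM (right, percent) held by the 83 ribosomal protein genes. Points are the 3 mice of each group with their replicate numbers, bars are means and whiskers SD; all TSC1 samples (0.803% to 0.890% of counts) lie below all WT samples (0.960% to 1.11%).

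Of the 83 members, 79 passed the filter on low counts and were tested. In the edgeR quasi-likelihood fit over all 13969 genes, 77 of the 79 had a log2 fold change below 0, where 50.7% of all genes tested did. Calls (Benjamini-Hochberg adjusted p below 0.05 over all genes) were made for 11 members, all lower in TSC1. This is 13.9% of the members tested, against a background of 0.659% of all genes called lower. No member was called higher by edgeR (background 0.859%), none had an unadjusted p below 0.05 in that direction, and DESeq2 and limma on log2(TPM + 1) called none higher (backgrounds 2.43% and 0.995%). An unadjusted p below 0.05 with a lower value was seen in 58 members (73.4%), against 8.93% of all genes. The median log2 fold change of the tested members was -0.34, a ratio of 0.791, with quartiles of -0.43 and -0.25, while the median of all genes was -0.0027. A further 26 members had an adjusted p between 0.05 and 0.1.

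The number of calls depended on single mice. Leaving out 1 mouse at a time, edgeR called 33 members without WT replicate 1 (background 1.19%) and 33 without TSC1 replicate 3 (3.06%). It called 0 without each of WT replicate 2, WT replicate 3, TSC1 replicate 1 and TSC1 replicate 2, where the backgrounds were 0.0355%, 0.0638%, 0.0283% and 0.0283%. In those 4 fits, 51, 50, 53 and 49 members had an unadjusted p below 0.05 with a lower value, against 6.12%, 6.89%, 6.48% and 6.04% of all genes. The medians moved less, from -0.40 (without WT replicate 1) to -0.30 (without WT replicate 3), and 76 or 77 of 79 members stayed below 0. DESeq2, fitted on all 6 mice, called 36 members, among them all 11 of edgeR, against a background of 2.15% of genes called lower.

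On normalized CPM, all 3 TSC1 samples were below all 3 WT samples in 59 members (74.7%), against 11.7% of all genes. In no member were all 3 above (10.9% of all genes), and in the other 20 the groups overlapped. On TPM the groups did not overlap, with TSC1 lower, in 57 members (72.2%), against 10.3% of all genes. Rpl38 alone had all TSC1 samples above all WT samples on that scale, as had 12.3% of all genes. Within the groups the members varied together. WT replicate 1 had the lowest CPM of the 3 WT mice in 72 of the 79 members, and TSC1 replicate 3 the highest of the 3 TSC1 mice in 55. The same counts were not made over all genes, so whether this is particular to the members was not tested.

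**Figure D2:**
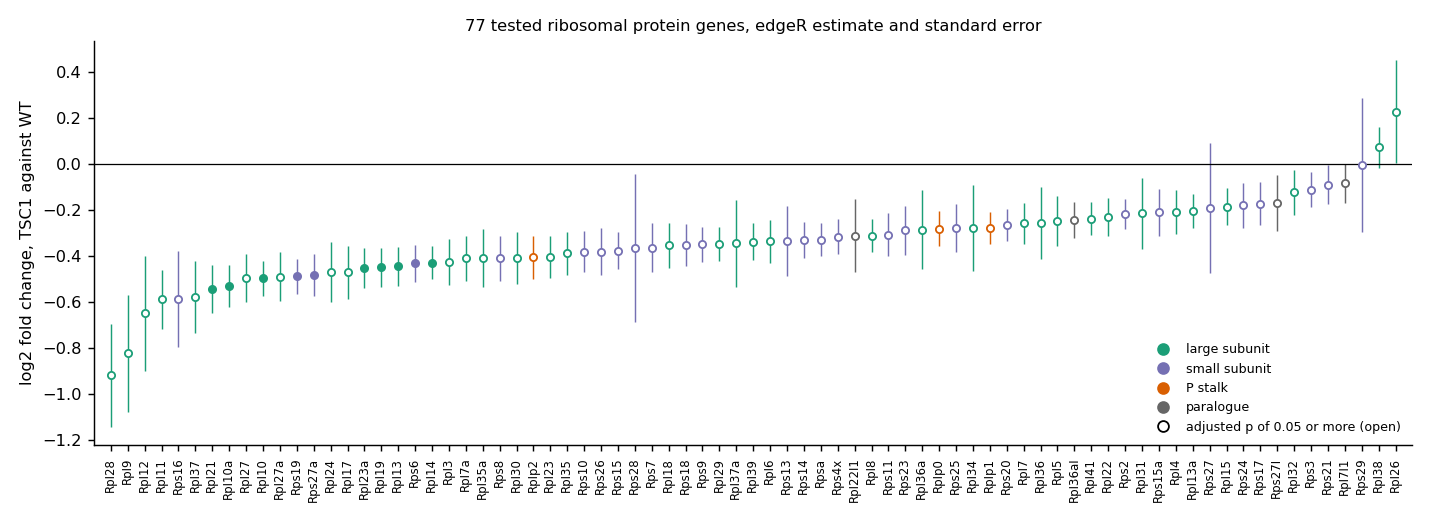
Log2 fold change of TSC1 against WT (vertical axis, edgeR) for 77 of the 79 tested members, ordered by value; whiskers are standard errors, colours mark the subunit and filled points have an adjusted p below 0.05. All but Rpl38 and Rpl26 are below 0, and the called genes lie between -0.54 and -0.43.

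Large subunit genes had a median log2 fold change of -0.41, with 41 of 43 below 0 and 8 called lower. The lowest estimate of those called was that of Rpl21 (chr5:146832890-146837032, GRCm38, plus strand). It had 45.8, 49.6 and 54.6 TPM in WT and 36.0, 34.3 and 35.0 TPM in TSC1, and its log2 fold change was -0.54 (SE 0.10, edgeR adjusted p = 0.0460). The 3 TSC1 mice were close to each other and below the lowest WT mouse. Rpl10a, a protein of the movable L1 stalk through which spent tRNA leaves (chr17:28328471-28331033, plus strand), had 168, 187 and 183 TPM in WT and 126, 123 and 133 TPM in TSC1. Its log2 fold change was -0.53 (SE 0.09, adjusted p = 0.0306). Rpl10, which is added late and is needed before the large subunit can work (chrX:74270812-74273135, plus strand), had 297, 316 and 319 TPM in WT and 229, 227 and 224 TPM in TSC1. Here the TSC1 mice differed by a few TPM among themselves. The log2 fold change was -0.50 (SE 0.08, adjusted p = 0.0214), the lowest adjusted p of the members.

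Rpl23a, located at the exit of the tunnel for the growing protein (chr11:78180932-78183584, minus strand), had 194, 193 and 209.5 TPM in WT and 153, 147 and 151 TPM in TSC1, a log2 fold change of -0.45 (SE 0.09, adjusted p = 0.0471). Rpl19, which takes part in a bridge between the subunits (chr11:98026710-98030492, plus strand), had 270.4, 313 and 282 TPM in WT and 222, 219 and 211 TPM in TSC1. Its WT replicate 2 was the highest sample, and its log2 fold change was -0.45 (SE 0.08, adjusted p = 0.0416). Rpl13 and Rpl14 are further proteins of the body of the large subunit, and in both the highest TSC1 mouse was below the lowest WT mouse. Rpl13 (chr8:123102350-123105244, plus strand) had 185, 205 and 183 TPM in WT and 142, 144 and 147 TPM in TSC1, a log2 fold change of -0.45 (SE 0.09, adjusted p = 0.0456). Rpl14 (chr9:120571444-120574654, plus strand), whose start is among those printed, had 300.1, 308 and 313 TPM in WT and 232, 244 and 226 TPM in TSC1. Its log2 fold change was -0.43 (SE 0.07, adjusted p = 0.0297).

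Small subunit genes had a median of -0.33, with all 29 tested members below 0 and 3 called lower. Rps6, the ribosomal protein phosphorylated by S6 kinase downstream of mTORC1 and widely used as a readout of that pathway (chr4:86854660-86857412, GRCm38, minus strand), had 351, 384 and 391 TPM in WT and 281, 273 and 299.7 TPM in TSC1. All TSC1 mice were below all WT mice for this mRNA. The log2 fold change was -0.43 (SE 0.08, edgeR adjusted p = 0.0411). Rps19, the gene most often mutated in Diamond-Blackfan anaemia (chr7:24884371-24889806, plus strand), was the most abundant of the 11 called genes. It had 544, 555 and 597 TPM in WT and 418, 402 and 427 TPM in TSC1, and its log2 fold change was -0.49 (SE 0.08, adjusted p = 0.0242). Rps27a, made as a fusion of ubiquitin with a small subunit protein (chr11:29545846-29548109, minus strand), had 94.4, 95.7 and 92.5 TPM in WT and 68.4, 71.4 and 68.5 TPM in TSC1. The samples of each group lay within a few TPM of each other, and the log2 fold change was -0.48 (SE 0.09, adjusted p = 0.0411). Rpsa, known also as the precursor of a laminin receptor, had 321, 340.1 and 353 TPM in WT and 288, 262 and 276 TPM in TSC1, with no overlap and a log2 fold change of -0.33 (SE 0.07, adjusted p = 0.0607).

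**Figure D3:**
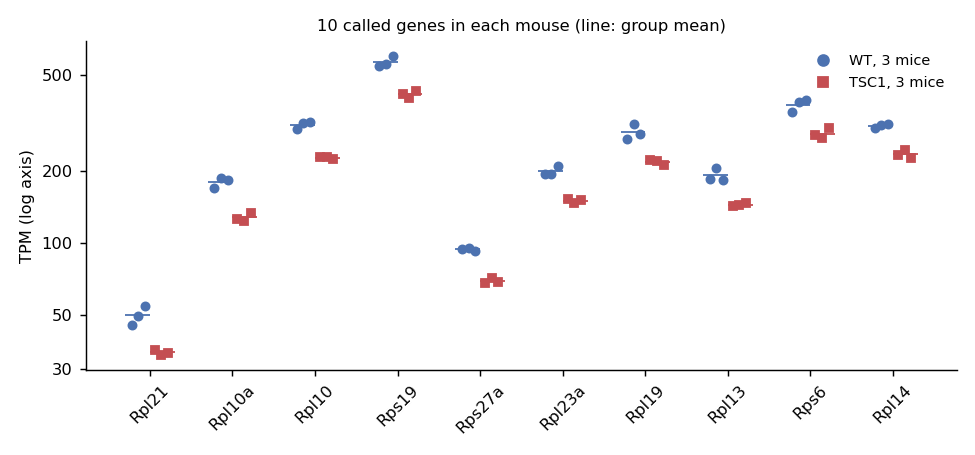
TPM (log axis) of 10 of the 11 members called lower in TSC1, ordered by fold change. Each point is 1 mouse, circles for WT and squares for TSC1, with lines at the group means; in all 10 the highest TSC1 mouse is below the lowest WT mouse.

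The P stalk, which recruits the elongation factors to the large subunit, is formed by Rplp0 with Rplp1 and Rplp2. All 3 genes were lower in every TSC1 mouse than in every WT mouse, and none was called by edgeR, while all 3 had an unadjusted p below 0.05, DESeq2 called 3 and limma 1. On TPM the same order was seen in 72.2% of all members tested and 10.3% of all genes. DESeq2 called 45.6% of all members tested and 2.15% of all genes lower, and limma 36.7% and 0.988%. Rplp1, the member with the highest mean TPM, had 2070.2, 2077 and 2040.2 TPM in WT and 1642, 1834 and 1809.9 TPM in TSC1, a log2 fold change of -0.28 (SE 0.07, adjusted p = 0.0857). Rplp0, the base of the stalk, had 1309, 1412 and 1434 TPM in WT and 1162, 1146 and 1194 TPM in TSC1, a log2 fold change of -0.28 (SE 0.07, adjusted p = 0.0988). Rplp2 had 416, 462 and 420.0 TPM in WT and 319.6, 372 and 325 TPM in TSC1, a log2 fold change of -0.41 (SE 0.09, adjusted p = 0.0683).

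None of the 10 members of highest mean TPM was called by edgeR. All 10 had estimates below 0, 8 had an unadjusted p below 0.05, DESeq2 called 7 and limma 4. Among them were Rplp1, Rpl4, Rpl32, Rpl8, Rplp0, Rps15, Rps9, Rpl41 and Rps14. Rps15 and Rps9 were nearest to the threshold, with log2 fold changes of -0.38 (SE 0.08, adjusted p = 0.0563) and -0.35 (SE 0.07, adjusted p = 0.0572). Rps14, Rpl8 and Rpl41 had -0.33, -0.31 and -0.24, with adjusted p-values of 0.0754, 0.0686 and 0.129. Rpl41 is the smallest protein of the ribosome. Rpl4, which reaches into the exit tunnel, and Rpl32 overlapped between the groups. Rpl4 had 1583, 1667 and 1843 TPM in WT and 1505, 1388 and 1625 TPM in TSC1, and TSC1 replicate 3 was above the lowest WT mouse. Rpl32 had 1277, 1396 and 1574 TPM in WT and 1389, 1258 and 1399 TPM in TSC1, with 2 TSC1 mice inside the WT range and a log2 fold change of -0.12 (SE 0.10, adjusted p = 0.543).

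The largest estimates below 0 were not called by edgeR, although 5 of 5 had an unadjusted p below 0.05, DESeq2 called 1 and limma 2. All but Rpl11 were among the members with few reads. Rpl28, a large subunit protein, had 19.7, 21.0 and 20.3 TPM in WT and 8.85, 10.7 and 13.6 TPM in TSC1, a log2 fold change of -0.92 (SE 0.22, edgeR adjusted p = 0.0789). The next were Rpl9 with -0.82 (SE 0.25), Rpl12, at the base of the stalk, with -0.65 (SE 0.25), and Rpl11 with -0.59 (SE 0.13). Rpl11 joins Rpl5 and 5S ribosomal RNA in the particle that can bind Mdm2. It had 96.2, 101 and 91.3 TPM in WT and 73.8, 55.3 and 68.9 TPM in TSC1, with TSC1 replicate 2 the lowest sample (adjusted p = 0.0577). Rps16, with -0.59 (SE 0.21, adjusted p = 0.182), had the lowest estimate of the small subunit genes.

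At the other end, Rpl26, Rpl38, Rps29, Rpl7l1 and Rps21 had the highest estimates, and all 5 overlapped between the groups on CPM. Rpl38, known from a mouse mutant with skeletal patterning defects, had 309, 276 and 309 TPM in WT and 316, 342 and 322 TPM in TSC1. Its TSC1 mice were all slightly above the WT mice on TPM, and its log2 fold change was 0.07 (SE 0.09, adjusted p = 0.702). With the length trend removed in the edgeR fit it was 0.22 (adjusted p = 0.231). Rpl26, at the tunnel exit, had 77.5, 72.1 and 57.2 TPM in WT and 55.9, 109 and 85.3 TPM in TSC1. The samples were scattered in both groups, and the log2 fold change of 0.23 (SE 0.23, adjusted p = 0.634) was -0.0095 without TSC1 replicate 2. Rps29 had 12.2, 23.1 and 15.5 TPM in WT and 18.4, 14.1 and 20.5 TPM in TSC1, a log2 fold change of -0.00 with an SE of 0.29, and its sign differed between processing choices. Rps21 had -0.09 (SE 0.08, adjusted p = 0.614), and 0.053 with the length trend removed.

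Several members have a paralogue, a second gene for a near relative of the same protein. Of the 7 paralogues, 4 passed the filter and all 4 were below 0, with a median of -0.21. None was called by edgeR, DESeq2 or limma, and 1 had an unadjusted p below 0.05 in edgeR. Rpl22 had 404, 441 and 456 TPM in WT and 376, 359 and 399 TPM in TSC1, and its log2 fold change was -0.23 (SE 0.08, adjusted p = 0.183). Rpl22l1 had 31.5, 31.1 and 30.8 TPM in WT and 25.6, 24.2 and 28.0 TPM in TSC1, and its log2 fold change was -0.31 (SE 0.16, adjusted p = 0.342). The more abundant gene of this pair was Rpl22. For Rpl36a and Rpl36al the order was the reverse, as Rpl36a had means of 67.8 TPM in WT and 57.5 TPM in TSC1 and Rpl36al 387 and 338 TPM. Their log2 fold changes were -0.29 (SE 0.17) and -0.24 (SE 0.08), with adjusted p-values of 0.419 and 0.154. Rps27l had higher TPM than Rps27, with log2 fold changes of -0.17 (SE 0.12) and -0.19 (SE 0.28). Rpl7 had 1139, 1114 and 1341 TPM in WT and 1054, 997 and 1039.9 TPM in TSC1 and a log2 fold change of -0.26 (SE 0.09, adjusted p = 0.177), and Rpl7l1 had -0.08 (SE 0.09, adjusted p = 0.645). Rps4x, encoded on the X chromosome, had 1054, 1060.2 and 1167 TPM in WT and 878, 894 and 936 TPM in TSC1 and -0.32 (SE 0.08, adjusted p = 0.0752). Rpl3, near the catalytic centre, had -0.43 (SE 0.10, adjusted p = 0.0700), and Rpl39, in the exit tunnel, had -0.34 (SE 0.08, adjusted p = 0.0754).

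The 4 members removed by the filter were Rpl10l, Rpl39l, Rpl3l and Rps12. Rpl10l, a gene of the male germ line, had 0 counts in every mouse, and Rpl39l and Rpl3l, the latter a gene of striated muscle, had at most 2 counts in any mouse. Rps12 is a core protein of the small subunit, and it had 5, 11 and 5 counts in WT and 2, 3 and 5 counts in TSC1. It also had 23 near-identical copies in the genome. Copies were counted as other annotated genes matching at least 90% of the coding sequence at 95% identity or more, most of them pseudogenes. How reads that match a gene and its copies were counted is not given in the sources used here, so the levels of members with copies are uncertain. An expected count that was not whole in at least 1 sample was found in 1 of the 83 members, and in 645 of all 22651 genes. The part of the copies in the low counts of Rps12 was not tested. The 17 members with at most 1 copy had a median log2 fold change of -0.32 over 14 tested. The median was -0.31 in 28 members with 2 to 5 copies, -0.36 in 23 with 6 to 10, and -0.41 in 14 tested members with 11 or more. Of the called genes, Rpl10a and Rpl14 had 1 copy each and Rpl21 had 56.

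Short transcripts in general were lower in TSC1, so the members were set beside other genes of the same length class. Both sets had a mean CPM of at least 3.93, the lowest decile of the tested members. Abundance was not matched beyond this floor. The median of the mean TPM was 243 over the tested members and 26.4 over all genes tested. Among transcripts of 500 to 1000 bases, 40 members had a median log2 fold change of -0.37 and 568 other genes a median of -0.10. Below 500 bases the medians were -0.28 for 13 members and -0.14 for 48 other genes. Between 1000 and 2000 bases they were -0.33 for 14 members and -0.045 for 2297 others. From 2000 bases upwards they were -0.22 for 4 members and 0.030 for 8717 others. The members were thus below the other genes in each class, by the medians. The edgeR calls did not follow this in every class. Under 500 bases 0 of 13 members and 2 of 48 other genes were called lower. From 500 to 1000 bases 8 of 40 members and 3 of 568 others were called lower. Between 1000 and 2000 bases these were 3 of 14 members and 14 of 2297 others. For 2000 bases upwards they were 0 of 4 members and 57 of 8717 others. On CPM, all TSC1 mice were below all WT mice in 61.5% of the members and 37.5% of the other genes under 500 bases, in 92.5% and 21.8% from 500 to 1000 bases, and in 71.4% and 13.8% from 1000 to 2000 bases. From 2000 bases upwards the order was the reverse, with 0 of 4 members and 9.44% of the other genes.

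**Figure D4:**
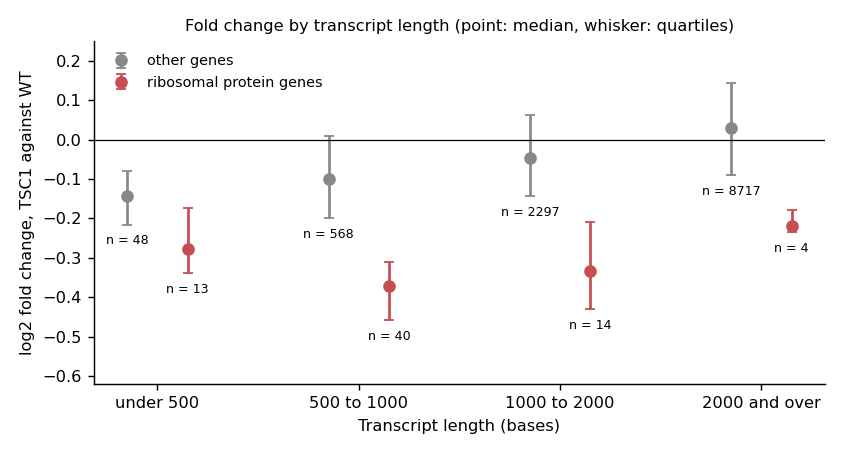
Log2 fold change of TSC1 against WT (vertical axis) by transcript length (horizontal axis, bases) for ribosomal protein genes (red) and for other genes (grey). Both sets had a mean CPM of at least 3.93 and were not matched further by abundance. Points are medians, whiskers quartiles and n the number of genes; the medians of the members are -0.28, -0.37, -0.33 and -0.22, and those of the other genes -0.14, -0.10, -0.045 and 0.030.

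When the length trend of each sample, taken from genes outside the members, was removed in the edgeR fit, the median of the members was -0.24, 74 of 79 were below 0 and 49 had an unadjusted p below 0.05 with a lower value (9.25% of all genes). A higher value with an unadjusted p below 0.05 was seen in 1 member, and in 1135 of all 13969 genes. In that fit 7 members were called (among them Rpl10, Rpl10a, Rpl14, Rpl21, Rps19 and Rps6), against a background of 0.78%. A further value moved with the groups. Transcript length less effective length, which reflects the fragment length modelled by RSEM, was 48.7, 45.8 and 49.7 bases in WT and 55.1, 57.6 and 56.2 bases in TSC1. These values are below the read length stated by the authors, so they were not taken as the size of the library fragments. The source of the difference was not tested. With the deposited effective lengths as offsets, 10 members were called (background 0.637%) and the median was -0.33.

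**Figure D5:**
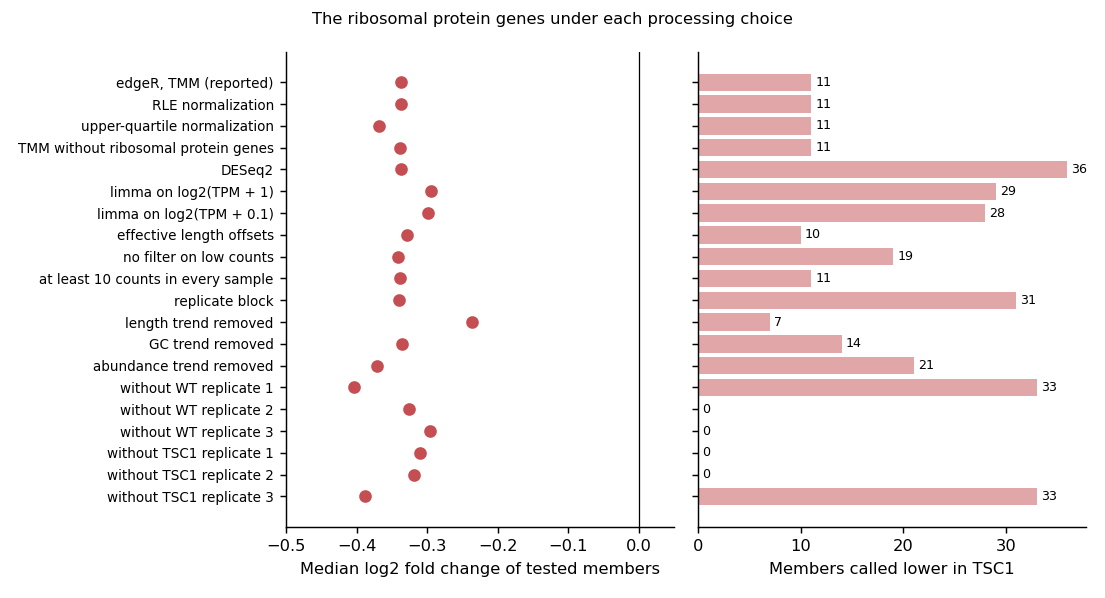
Median log2 fold change of the tested members (left) and number of members called lower in TSC1 (right) under each processing choice, with 1 choice changed at a time. The median stays between -0.40 and -0.24, while the number called goes from 0 to 36.

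Genes related to the members were compared in the same fit. Gnb2l1 and Rps3a1 encode ribosomal proteins whose symbols the naming rule did not take, and neither was called by edgeR, DESeq2 or limma, while Gnb2l1 had an unadjusted p below 0.05. Gnb2l1, the scaffold protein Rack1 of the small subunit, had -0.24 (SE 0.09, adjusted p = 0.185), and Rps3a1 had -0.26 (SE 0.17, adjusted p = 0.445). Among 15 other genes known to give TOP mRNAs, such as translation factors, 12 were below 0 with a median of -0.14. None was called by edgeR, 4 had an unadjusted p below 0.05 with a lower value, DESeq2 called 2 lower and limma 1. On TPM all TSC1 mice were below all WT mice in 8 of the 15 genes (53.3%) and above them in 1. The shares of all genes were 10.3% and 12.3%, and 72.2% of the members tested were below. Estimates in this list ran from -0.38 (edgeR adjusted p = 0.0938) to 0.05. Eef1a1, the factor that brings tRNA to the ribosome, had -0.22 (SE 0.08, adjusted p = 0.189), and Pabpc1, which binds poly(A) tails, had 0.05 (SE 0.06, adjusted p = 0.701).

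Ribosome biogenesis factors, which process ribosomal RNA and assemble the subunits, had 18 of 31 genes below 0 and a median of -0.028. None was called by edgeR, DESeq2 or limma, and none had an unadjusted p below 0.05 in edgeR. Mitochondrial ribosomal proteins, which form the separate ribosome of the mitochondrion, had 47 of 71 genes below 0 and a median of -0.040. No gene of theirs was called by these tools, and 2 had an unadjusted p below 0.05 with a lower value. Complex I subunits of the respiratory chain, with a median length of 635 bases, had 31 of 33 below 0 and a median of -0.096. None was called by these tools, and 3 had an unadjusted p below 0.05 with a lower value. With the length trend removed, the medians of the mitochondrial ribosomal and complex I genes were 0.015 and 0.0032.

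Markers of other cell types were read beside these values. Of the erythroid markers, 4 of 4 measured were below 0, and their summed TPM was 1694, 2044 and 5566 in WT and 1505, 1291 and 1783 in TSC1. Choroid plexus markers, 4 of 4 below 0, summed to 1682, 1159 and 2450 TPM in WT and 28.0, 107 and 855 TPM in TSC1. Striatal markers, 5 of 5 below 0, ranged from 102 to 128 TPM in WT and from 32.7 to 70.1 TPM in TSC1, and endothelial markers, 4 of 4 below 0, from 156 to 211 and from 133 to 160. No gene of these 4 lists was called by edgeR, although 4 erythroid, 4 choroid plexus, 4 striatal and 3 endothelial genes had an unadjusted p below 0.05. DESeq2 called 0, 3, 2 and 2 of them, and limma 0, 1, 2 and 0. The neuronal markers summed to between 8721 and 9113 TPM in WT and between 8796 and 9863 TPM in TSC1, and the dorsal telencephalon markers to between 1111 and 1301 and between 1163 and 1551, so that the labelled tissue was present in all samples. Of the progenitor markers 5 of 6 were below 0, and Sox2 was called lower, with -0.47 (SE 0.08, adjusted p = 0.0297). Of the astrocyte markers 2 of 4 were below 0. Gfap was called higher, with 1.09 (SE 0.13, adjusted p = 0.00683), while Slc1a3 had -0.31 (SE 0.10, adjusted p = 0.149), Aldh1l1 -0.08 (SE 0.07, adjusted p = 0.629) and Aqp4 0.27 (SE 0.12, not called), and the summed TPM of the 4 genes overlapped, at 301 to 386 in WT and 319 to 379 in TSC1. The call of Sox2 was lost in edgeR without WT replicate 2 or 3 or TSC1 replicate 1 or 2 (adjusted p from 0.125 to 0.155), and that of Gfap without WT replicate 2 (0.0562) or TSC1 replicate 1 (0.0620). Oligodendrocyte and microglial markers had no call by edgeR, with 1 and 2 genes at an unadjusted p below 0.05, and DESeq2 called 1 and 0 of them and limma none. The part of these cell types in the values of the ribosomal protein genes was not tested.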

How the data were processed

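Telencephalon RNA of 3 WT and 3 TSC1 mice was sequenced from libraries whose kit does not mark strand. Reads were trimmed by the authors and mapped with MapSplice2 on mm10, and RSEM 1.2.12 gave the gene values. The RefSeq release and the treatment of reads with several matches are not given in the sources used here. The deposited expected counts are the authors' RSEM estimates of reads per gene, without normalization. The deposited TPM values were computed by the authors with RSEM from counts and effective lengths, and the deposited FPKM values were not used here.

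Expected counts were rounded and fitted over all genes with edgeR 4.0.16 in R 4.3.3 (TMM, filterByExpr, quasi-likelihood test, Benjamini-Hochberg adjustment). Groups and replicate numbers came from the sample labels. Alternatives used DESeq2 1.42.0, limma 3.58.1 on log2(TPM + 1) or log2(TPM + 0.1), RLE and upper-quartile normalization, TMM without the members, effective length offsets, other filters, a replicate block, removal of length, GC and abundance trends (chosen after seeing the data), and leaving out each mouse. The scripts were tested on simulated data. Copies were found with blastn 2.17.0 on GENCODE M21 transcripts, from which positions were taken (GRCm38, the assembly of mm10). Promoter sequences were from RefSeq. Named were Tsc1, called members, the 10 of highest TPM, the 5 highest and 5 lowest fold changes, the P stalk, Rpsa, Rps6, paralogue pairs, members filtered out, called genes of the other lists and ribosomal proteins outside the naming rule; Eef1a1 and Pabpc1 were chosen after their values were seen. A few named genes are not reported here. The members and lists were chosen with earlier results of these data known.

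Depth was 14119365 to 17772865 expected counts per sample. The p-values set the difference between the groups against the spread between 3 mice per group. The estimate of this spread for a gene also drew on the other genes of the fit. All pairs of libraries of a group differed by more than sampling noise.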

Additional observations from a re-analysis of the deposited data

How the results depend on the processing

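All choices left the median of the members below 0. The number of members called lower (11) was 36 with DESeq2, 29 and 28 with limma on log2(TPM + 1) and log2(TPM + 0.1), 19 without a filter on low counts, 21 with the abundance trend removed and 7 with the length trend removed, where the median was -0.24. It was 10 to 14 with RLE, upper-quartile or member-free TMM normalization, at least 10 counts in every sample, effective length offsets or the GC trend removed. Over these fits on all 6 mice, 0.637% to 2.15% of all genes were called lower. Leaving out 1 mouse gave 0 to 33 calls. The cause was not tested. The replicate block gave 31 calls, in a fit that called 1.99% of all genes lower. Samples of the same number had correlations of 0.267, -0.133 and 0.318, so that the numbers were not taken as pairs. Not every sample correlated best with its own number. The labels do not say whether samples with the same number share a litter or a batch.

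Some single genes changed sign. With the length trend removed, Rpl32 was 0.0047 and Rps21 0.053. Rps29 was 0.089 and 0.095 with limma (pseudocounts of 1 and 0.1), 0.026 with effective length offsets, 0.019 with the block, 0.14 and 0.078 with the length and abundance trends removed, and -0.21 to 0.31 when 1 mouse was left out. On leaving out 1 mouse, Rpl26 ranged from -0.0095 to 0.46 and Rps27 from -0.41 to 0.049. Precision was limited by 3 mice per group and, for 13 members with a mean TPM below 20, by few reads.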
